A study of Mus musculus with 20 samples.

Results

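The 43 genes described here are the transporters and enzymes of glycolysis, the hypoxia-inducible factor (HIF) genes with their oxygen-dependent regulators, and widely used hypoxia response genes. They were chosen by name, with earlier results of these data known, and all 43 had an identifier among the 16978 named genes of the deposited tables. Expression was measured by bulk RNA-seq in tumor cells of MycCaP-Bo, a mouse prostate cancer line that came from a Myc-driven prostate tumor in FVB mice, was selected in vivo for homing to bone, and was labeled with luciferase and the infra-red fluorescent protein iRFP. The line was inoculated into the heart of FVB/N mice aged 4 to 6 weeks, and tumor cells sorted as CD45- iRFP+ from bone lesions of 3 mice were pooled for each library, with 5 libraries in each of 4 groups. Naive tumors received vehicle. Resist tumors received enzalutamide, an androgen receptor antagonist, at 30 mg/kg daily for 18 d. Resist-Mac tumors received the same enzalutamide course, with clodronate liposomes at 1 mg per mouse in its last 4 d to deplete macrophages. Naive-Mac tumors received clodronate liposomes at 1 mg per mouse without enzalutamide. All 4 groups carry the same Myc-driven line. The labels place Naive and Resist in batch 1, Resist-Mac in batch 2 and Naive-Mac in batch 3.

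Glycolysis turns glucose, which enters through GLUT transporters, into pyruvate, and lactate dehydrogenase and monocarboxylate transporters then convert and export it. HIF-alpha proteins (Hif1a, Epas1) are hydroxylated by the EGLN enzymes when oxygen is present and are then marked for degradation by VHL. When oxygen is low they pair with Arnt and switch on many of the genes described here, including most steps of glycolysis, and Egln1 is itself among these targets. Protein stability is the main control of HIF-alpha, so an mRNA level of Hif1a is not a measure of HIF activity. Bone marrow is a tissue of low oxygen tension.

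The sort was checked with marker lists. Summed prostate epithelial markers, led by Krt8, lay between 254 and 505 FPKM in Naive and Resist libraries, while endothelial markers summed to at most 3.7 FPKM and osteoclast markers to at most 1.42 FPKM. FPKM relates a gene's fragments to its length and to the size of the library. Neutrophil markers summed to 176 to 1274 FPKM in Naive and 61.7 to 605 FPKM in Resist, and macrophage markers to 19.0 to 116 FPKM and 4.26 to 62.7 FPKM, with overlap between groups for every marker list. Osteoblast and stromal markers, led by Runx2, summed to 10.7 to 16.1 FPKM in Naive (median 11.4) and 11.4 to 33.0 FPKM in Resist (median 23.6), where the stromal collagen gene Col1a1 had a mean of 5.95 ± 5.04 FPKM against 1.84 ± 1.002 FPKM in Naive (SD, adjusted p = 0.227). Erythroid markers, nearly all Hba-a1, summed to 54.1 to 108 FPKM in Naive and 107 to 200.4 FPKM in Resist, and Hba-a1 was called higher in Resist (log2 change of 0.78, SE 0.21, adjusted p = 0.0245), a call lost without Naive replicate 3 (adjusted p = 0.0547) or without Resist replicate 1 (adjusted p = 0.0544). The part of these cells in the results on the members was not tested. In bulk samples, fewer cells of a type and less RNA per cell cannot be told apart. Without read counts in the files, library depth is unknown.

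The question here is how tumor cells that resist enzalutamide differ from untreated ones in this program. Most genes of glucose uptake, glycolysis and lactate handling had a lower mean in Resist, and many of them passed the test. The fall was largest for Epas1, which encodes HIF-2alpha, and for Slc2a1, the main glucose transporter of tumor cells, and it reached Bnip3, Ankrd37 and Vegfa. Pfkm, Pfkfb3 and Car9 were higher. Naive and Resist libraries lie in 1 deposited table and 1 labelled batch, and this comparison was tested with limma on log2(FPKM + 1) for the 10119 genes that averaged 1 FPKM or more. A gene was called when its Benjamini-Hochberg adjusted p was under 0.05 and its change exceeded 1.5-fold.

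Of the 43 members 35 passed the filter on low values, and 8 did not. Among the 35, 5 were called lower in Resist (14.3%, against 1.11% of all genes tested) and 3 were called higher (8.57%, against 5.25%). At an adjusted p under 0.05 and any fold change, 17 members were lower (48.6%, against 6.4% of all genes) and 3 were higher (8.57%, against 12.5%). Naive and Resist libraries stood fully apart for 7 lower members (against 4.34% of all genes) and 2 higher members (against 8.45%). The mean log2 value was lower in Resist for 28 of 35 members (80%) and for 43.9% of all genes, and the median change was -0.34 over the members and 0.03 over all genes. The lower calls are the rarer kind in this comparison, since 531 genes were called higher and 112 lower. With quantile normalization 384 were called higher and 162 lower. The members were chosen with earlier results of these data known, so their shares are a description and no test of an independent list.

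**Figure D1:**
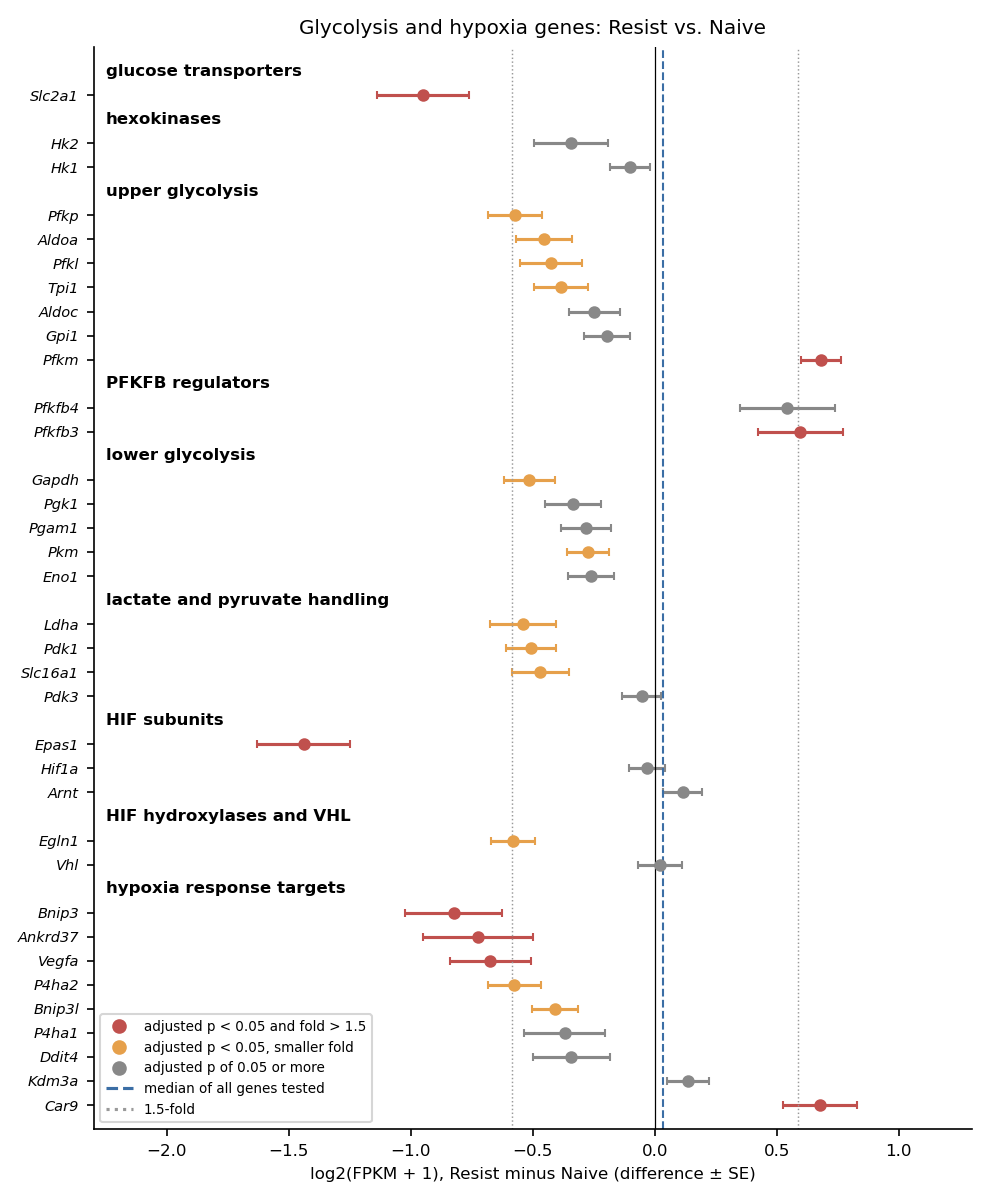
Difference of mean log2(FPKM + 1), Resist minus Naive, with its SE for the 35 members tested, grouped by role, from 5 libraries per group. Members lie mostly to the left of the dashed all-gene median (0.03), with Epas1 at -1.44 and Slc2a1 at -0.95 the furthest, and Pfkm, Pfkfb3 and Car9 lie to the right of the 1.5-fold line.

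Promoters are shown because many members are known HIF targets. Since members were listed partly for that reason, a higher share of HIF letters among them is no independent result. HIF binds ACGTG or GCGTG, which read CACGT or CACGC on the other strand. Myc binds CACGTG, which contains ACGTG on both strands and so counts as overlapping HIF matches. RefSeq promoter windows around each start site (build GRCm38.p6) were found for 39 members, and Slc2a3, Epas1, Bnip3l and Ndrg1 had none in the table. At least 1 of the HIF letters stood in a window of 35 of these 39 members (89.7%), against 70.6% of the 8160 tested genes with a window and 46.7% of all 27025 genes with one. With ACGTG alone, the shares were 25 of 39 members (64.1%), 31.3% of tested genes and 21.8% of all genes. By single window, 78.6% of the 56 member windows and 43.8% of all 32851 windows held either letter string. For CACGTG the share was 15.4% in members and 12.7% in tested genes. Of the 17 members lower in Resist at an adjusted p under 0.05, 15 had a window and 11 of these (73.3%) held ACGTG, beside 64.1% of all members with a window. Whether these letters have a part in the lower levels was not tested. A letter match is a description and no measure of binding, and genes with several start sites have more windows in which to match. The stretches printed here, read 5′ to 3′ on the gene's own strand and ending before the first annotated exon, belong to Slc2a1, Bnip3, Ankrd37 and Egln1, which were lower in Resist and are established HIF targets, and to Car9, a HIF target that was higher. Matches are in capitals.
Slc2a1 (plus strand, chr4:119108495-119108710): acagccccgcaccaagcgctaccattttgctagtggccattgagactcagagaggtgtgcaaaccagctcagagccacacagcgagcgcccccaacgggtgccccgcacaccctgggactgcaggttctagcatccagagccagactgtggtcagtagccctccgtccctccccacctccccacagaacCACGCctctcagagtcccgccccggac
Bnip3 (minus strand, chr7:138909520-138909756): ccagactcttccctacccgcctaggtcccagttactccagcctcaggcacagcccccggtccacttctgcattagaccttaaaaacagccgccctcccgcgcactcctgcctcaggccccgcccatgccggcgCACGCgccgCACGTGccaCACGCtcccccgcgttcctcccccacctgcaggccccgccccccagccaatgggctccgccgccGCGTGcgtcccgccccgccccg
Ankrd37 (minus strand, chr8:45999868-46000100): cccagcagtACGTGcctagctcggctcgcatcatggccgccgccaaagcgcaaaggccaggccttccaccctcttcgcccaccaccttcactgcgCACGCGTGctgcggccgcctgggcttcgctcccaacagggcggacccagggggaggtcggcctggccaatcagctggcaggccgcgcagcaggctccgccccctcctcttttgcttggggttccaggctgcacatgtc
Egln1 (minus strand, chr8:124949325-124949504): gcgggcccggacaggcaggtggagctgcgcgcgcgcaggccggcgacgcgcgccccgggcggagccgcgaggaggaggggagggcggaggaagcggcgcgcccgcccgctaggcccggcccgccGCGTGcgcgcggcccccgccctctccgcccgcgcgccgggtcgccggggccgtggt
Car9 (plus strand, chr4:43506776-43506965): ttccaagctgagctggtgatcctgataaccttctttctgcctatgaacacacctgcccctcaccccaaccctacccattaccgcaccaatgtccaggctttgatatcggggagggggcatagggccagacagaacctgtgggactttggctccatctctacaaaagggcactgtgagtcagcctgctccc
The Bnip3 stretch of 237 bases held 5 matches, 2 of which are the overlapping strands of 1 CACGTG. The Ankrd37 stretch held 3 matches of the 4 in its whole window, and those of Slc2a1 and Egln1 held 1 of 2 each. The Car9 stretch of 190 bases held 0 of the 1 in its window. The further matches, all with the letters of ACGTG on either strand, lie past the end of the printed stretches, and the Slc2a1 stretch ends inside its second match.

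Glucose uptake was described by 1 tested member. Slc2a1 (Entrez 20525), which encodes GLUT1, measured 230.2, 261, 174, 312 and 254 FPKM in Naive and 113, 125, 111, 96.2 and 201 FPKM in Resist. Resist replicate 5 overlapped the Naive range, and the other Resist libraries lay below every Naive library. The mean fell from 246 ± 50.05 to 129 ± 41.3 FPKM (SD, n = 5 each; log2 change of -0.95, SE 0.19, adjusted p = 0.00541). The call held whichever library was left out, at log2 changes of -1.12 to -0.86.

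The hexokinases, which trap glucose in the cell as glucose 6-phosphate, did not pass the test. Hk1, the higher in level, measured 65.3, 76.9, 60.95, 80.2 and 69.4 FPKM in Naive and 64.8, 69.7, 63.6, 69.8 and 59.4 FPKM in Resist. Hk2, the inducible form that HIF and Myc are known to raise, measured 57.4, 60.9, 47.4, 65.8 and 50 FPKM in Naive and 39.6, 37.5, 34.6, 48.2 and 64.8 FPKM in Resist, and Resist replicate 5 was the second highest of these 10 values. The changes were -0.10 for Hk1 (adjusted p = 0.398) and -0.34 for Hk2 (adjusted p = 0.131).

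The phosphofructokinase genes moved in opposite directions. Phosphofructokinase commits sugar to glycolysis, and its subunits are made from Pfkl, Pfkm and Pfkp. Pfkm (Entrez 18642), the muscle-type subunit and the least abundant of the 3, measured 6.26, 6.87, 6.17, 5.81 and 7.15 FPKM in Naive and 10.8, 10.99, 10.3, 12.7 and 10.1 FPKM in Resist. Every Resist library lay above every Naive library, and the mean rose 1.7-fold (log2 change of 0.68, SE 0.08, adjusted p = 0.000333). Pfkp, the platelet-type subunit, measured 69.9, 71.4, 55.8, 81.8 and 62.97 FPKM in Naive and 46.6, 43.6, 41.7, 39.6 and 56.4 FPKM in Resist, and only Resist replicate 5 reached the Naive range (log2 change of -0.57, SE 0.11, adjusted p = 0.00475). Pfkl, the liver-type and most abundant subunit, measured 130.3, 138, 111, 141 and 119 FPKM in Naive and 96.7, 92.1, 104, 67.9 and 119 FPKM in Resist, with Resist replicate 5 alone in the Naive range (log2 change of -0.43, SE 0.13, adjusted p = 0.0361). The mean of Pfkm went from 6.45 ± 0.546 to 10.97 ± 1.05 FPKM while Pfkl went from 128 ± 12.9 to 95.9 ± 18.7 FPKM, so Pfkl remained the subunit with the highest level per length in both groups.

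Pfkfb3 and Pfkfb4 make and break fructose 2,6-bisphosphate, the strongest activator of phosphofructokinase. Pfkfb3 (Entrez 170768), whose product mainly makes it, measured 8.17, 8.75, 9.17, 7.98 and 7.79 FPKM in Naive and 7.13, 14.97, 16.2, 15.3 and 14.6 FPKM in Resist. Resist replicate 1 was lower than all Naive libraries, and the other 4 Resist libraries were higher than all of them (log2 change of 0.60, SE 0.17, adjusted p = 0.0334). This call was lost when any 1 of 9 libraries was left out, with an adjusted p between 0.0484 and 0.0831 and a log2 change of 0.53 to 0.63, and it was kept without Resist replicate 1, at a log2 change of 0.80 and an adjusted p of 0.000182. Pfkfb4 had a mean of 8.29 ± 1.31 FPKM in Naive and 13.1 ± 5.099 FPKM in Resist and was not called (log2 change of 0.54, SE 0.20, adjusted p = 0.0714), but it was called without Resist replicate 1 (log2 change 0.67, adjusted p = 0.0293).

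Among the remaining enzymes of the upper pathway, which rearrange and split the sugar, Aldoa and Tpi1 were lower in Resist. Aldoa, the main aldolase, measured 2014, 2119, 1879, 2591 and 2414 FPKM in Naive and 1681, 1634, 1485, 1303 and 1957 FPKM in Resist (log2 change of -0.45, SE 0.11, adjusted p = 0.0181). Tpi1, which interconverts the triose phosphates, measured 800.1, 771, 674, 835 and 751 FPKM in Naive and 545, 650.2, 564, 466 and 736 FPKM in Resist (log2 change of -0.38, SE 0.11, adjusted p = 0.0301). Resist replicate 5 was the only Resist library inside the Naive range for Aldoa and for Tpi1. Gpi1, the glucose 6-phosphate isomerase, and Aldoc, a minor aldolase, were not past the threshold, with changes of -0.20 (adjusted p = 0.161) and -0.25 (adjusted p = 0.117). Of the 7 upper pathway genes, 4 were lower at an adjusted p under 0.05, 1 was higher and 2 did not pass.

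The lower pathway, from Gapdh to pyruvate kinase, held 5 tested members, and all 5 means were lower in Resist, 2 of them past an adjusted p of 0.05. Gapdh, the enzyme that reduces NAD+ in glycolysis, measured 676, 721, 635, 757 and 734 FPKM in Naive and 482, 492, 491, 392 and 631 FPKM in Resist. Its groups did not overlap (log2 change of -0.51, SE 0.10, adjusted p = 0.00614), and it was called without Resist replicate 5 (log2 change -0.60, adjusted p = 0.000488). Pkm, the pyruvate kinase and the most abundant member, measured 2475, 2487, 2232, 2579 and 2377 FPKM in Naive and 2204, 1848, 2093, 1677 and 2280 FPKM in Resist (log2 change of -0.27, SE 0.09, adjusted p = 0.0472). Pkm too had only Resist replicate 5 inside the Naive range. Pgk1, Pgam1 and Eno1, the enzymes between Gapdh and Pkm, had log2 changes of -0.33, -0.28 and -0.26, at adjusted p of 0.0589, 0.0744 and 0.0734. Eno1 did not pass although its libraries did not overlap. Gapdh has 161 close processed pseudogenes in the mouse annotation, and Aldoa, Tpi1, Pgk1, Pgam1, Eno1, Pkm, Ldha, Ldhb and Bnip3 have 1 to 8 each, so the level of these genes depends on how shared reads were assigned.

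**Figure D2:**
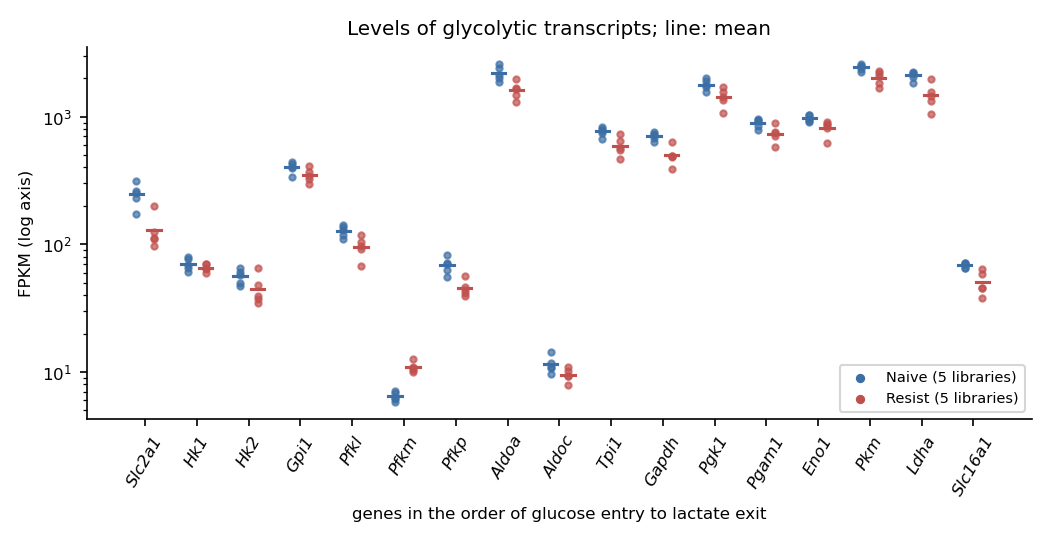
FPKM on a log axis of 17 transcripts ordered from glucose uptake to lactate export, with 1 point per library and a line at the mean, Naive beside Resist (5 libraries each). Levels span from 6.45 FPKM (Pfkm, Naive) to 2430 FPKM (Pkm, Naive), and Pfkm is the only one of the 17 with a higher mean in Resist.

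Lactate and pyruvate handling followed the same direction, with 3 of 4 tested members past an adjusted p of 0.05. Ldha, which turns pyruvate into lactate, measured 2248, 2148, 1852, 2207 and 2061 FPKM in Naive and 1337, 1557, 1440, 1053 and 1975 FPKM in Resist, with Resist replicate 5 alone in the Naive range (log2 change of -0.54, SE 0.13, adjusted p = 0.0167). Slc16a1, the lactate and pyruvate transporter MCT1, measured 70.5, 65.4, 65.8, 71.9 and 71.2 FPKM in Naive and 45.7, 58.1, 45.2, 38.3 and 64.4 FPKM in Resist, and its groups did not overlap (log2 change of -0.47, SE 0.12, adjusted p = 0.0177). Pdk1, the kinase that shuts pyruvate dehydrogenase and a HIF target, measured 26.5, 26.3, 20.96, 22.97 and 24.2 FPKM in Naive and 15.6, 16.9, 19.9, 13.3 and 18.2 FPKM in Resist without overlap (log2 change of -0.51, SE 0.10, adjusted p = 0.00596). Pdk3, a related kinase, measured 17.3 ± 1.59 FPKM in Naive and 16.6 ± 1.52 in Resist (adjusted p = 0.671). Ldha was called without Naive replicate 3 (log2 change -0.59, adjusted p = 0.0224) or without Resist replicate 5 (-0.65, adjusted p = 0.00140).

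Summed over the 43 members, transcripts of this program made up 2.41% to 2.97% of the named-gene FPKM in Naive libraries and 1.76% to 2.56% in Resist libraries. Resist replicate 5 held the 2.56% and the other Resist libraries at most 2.18%, so only that library overlapped the Naive range. The sum is dominated by Pkm, Aldoa, Ldha and Pgk1, each at 1053 FPKM or more in every library.

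Among the 3 HIF subunits, Epas1 passed the test and Hif1a and Arnt did not. Epas1 (Entrez 13819) measured 39.8, 42.6, 44.1, 35.03 and 33.5 FPKM in Naive and 10.1, 20.6, 11.9, 9.8 and 19.4 FPKM in Resist. All Resist libraries lay well below all Naive libraries, with a mean of 39.01 ± 4.65 FPKM against 14.4 ± 5.24 FPKM, or 0.368 of the Naive level (log2 change of -1.44, SE 0.19, adjusted p = 0.000616). Hif1a, which encodes HIF-1alpha, measured 48.3, 46.7, 49.2, 42.96 and 39.8 FPKM in Naive and 42.2, 50.2, 43.1, 44.3 and 42.1 FPKM in Resist, and its groups overlapped (log2 change of -0.03, SE 0.07, adjusted p = 0.794). Arnt, the shared partner, had 21.00 ± 1.98 FPKM in Naive and 22.8 ± 2.09 in Resist (adjusted p = 0.348). In FPKM, a level per length, Hif1a stood above Epas1 in every library of both groups, by a wider margin in Resist.

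Egln1 encodes the main oxygen-dependent hydroxylase of HIF-alpha, and Vhl the ubiquitin ligase subunit that recognizes the hydroxylated form. Egln1 measured 61.3, 62.8, 52.2, 68.8 and 55.8 FPKM in Naive and 40.1, 38.7, 38.4, 35.02 and 47.2 FPKM in Resist. The groups did not overlap and the change was -0.58 (SE 0.09, adjusted p = 0.001397), just under the fold threshold. Egln1 was called without Naive replicate 3, Naive replicate 5 or Resist replicate 5, at log2 changes of -0.61 to -0.64. Vhl had 6.34 ± 0.491 FPKM in Naive and 6.47 ± 0.8801 in Resist, with an adjusted p of 0.8999 and a sign that turned under both rescalings.

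The hypoxia response targets held 9 tested members, of which 5 were lower and 1 was higher at an adjusted p under 0.05. Vegfa (Entrez 22339), the vascular growth factor, measured 49.7, 53.2, 38.8, 55.6 and 41.2 FPKM in Naive and 24.6, 27.03, 27.9, 24.5 and 46.8 FPKM in Resist. Resist replicate 5 lay inside the Naive range while the other 4 lay at 24.5 to 27.9 FPKM, below all of it (log2 change of -0.67, SE 0.17, adjusted p = 0.0154). Bnip3 (Entrez 12176), a mitophagy receptor, measured 423, 405, 320.1, 542 and 441 FPKM in Naive and 236, 252, 207, 158 and 383 FPKM in Resist (log2 change of -0.82, SE 0.20, adjusted p = 0.0143). Ankrd37 (Entrez 654824), a small ankyrin repeat gene, measured 39, 36.04, 23.4, 46.7 and 31.6 FPKM in Naive and 21.8, 18.7, 18.1, 13.5 and 35.8 FPKM in Resist (log2 change of -0.72, SE 0.23, adjusted p = 0.04300). For Bnip3 and Ankrd37 too, Resist replicate 5 was the 1 Resist library within the Naive range. The Ankrd37 call was lost when any 1 of 8 libraries was left out, at an adjusted p of 0.0641 to 0.0984, and was kept without Naive replicate 3 or Resist replicate 5.

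Smaller falls were seen in P4ha2 and Bnip3l. P4ha2, a collagen prolyl hydroxylase subunit, measured 48.4, 44.6, 41.03, 51.3 and 46.1 FPKM in Naive and 31.3, 32.03, 32.6, 22.7 and 36.4 FPKM in Resist without overlap (log2 change of -0.58, SE 0.11, adjusted p = 0.004402), and was called in 5 of the 10 fits that leave out 1 library, those without Naive replicate 2 or 3 or Resist replicate 2, 3 or 5. Bnip3l, the paralog of Bnip3, measured 72.8, 64.2, 54.4, 63.5 and 58.6 FPKM in Naive and 44.4, 54.5, 44.8, 40.7 and 50.6 FPKM in Resist, with Resist replicate 2 just inside the Naive range (log2 change of -0.41, SE 0.09, adjusted p = 0.0107). Pfkp, for its part, was called in 3 such fits, without Naive replicate 3 or 5 or Resist replicate 5. P4ha1, the other collagen hydroxylase subunit, Ddit4, a stress-induced inhibitor of mTORC1, and Kdm3a, a histone demethylase, did not pass, with changes of -0.37 (adjusted p = 0.133), -0.34 (adjusted p = 0.147) and 0.14 (adjusted p = 0.277).

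Car9, the carbonic anhydrase that is widely used as a tissue marker of hypoxia, was higher in Resist. Car9 (Entrez 230099) measured 2.91, 1.88, 3.59, 4.21 and 3.2 FPKM in Naive and 6.31, 6.38, 5.25, 4.3 and 5.6 FPKM in Resist. The lowest Resist value stood just above the highest Naive value, and the mean rose 1.76-fold from a low level (log2 change of 0.68, SE 0.15, adjusted p = 0.0101). Without Naive replicate 2 its log2 change was 0.55, under the fold threshold, at an adjusted p of 0.0171.

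**Figure D3:**
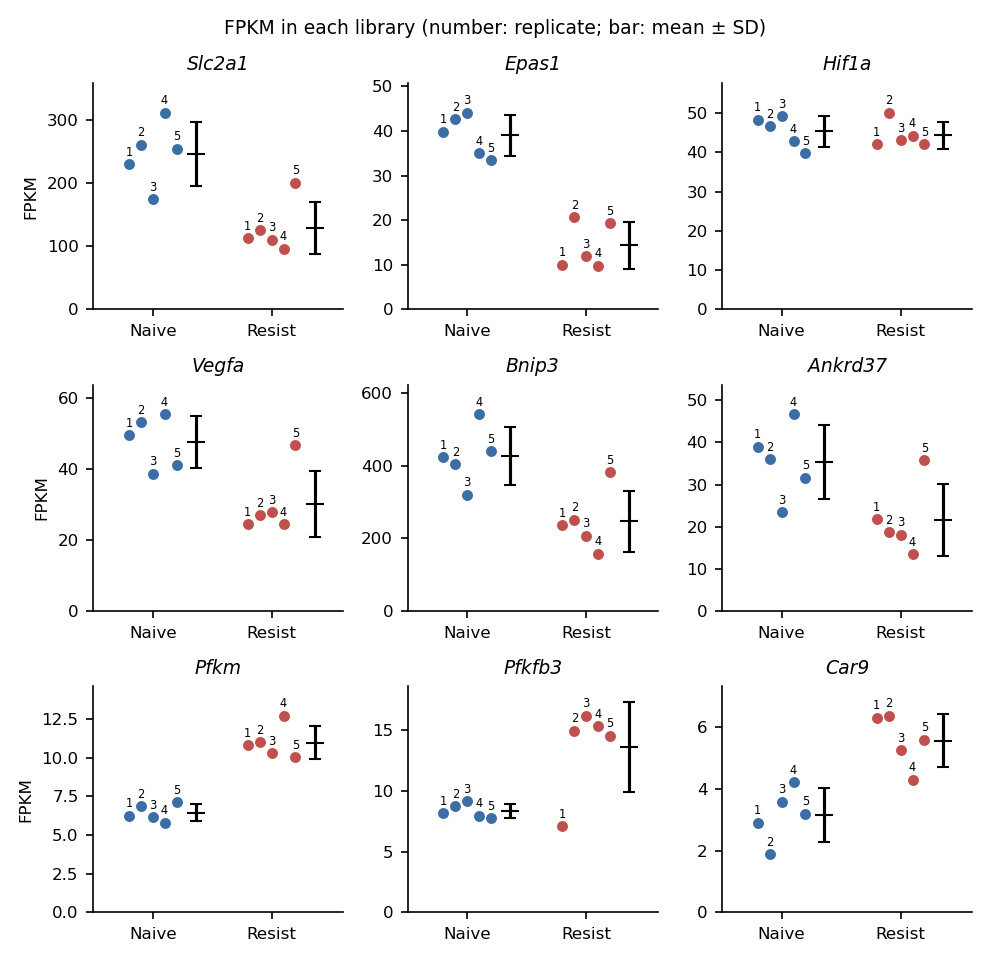
FPKM in each Naive and Resist library for the 8 called members and Hif1a, with the replicate number above each point and the mean ± SD (n = 5) beside it. Resist replicate 5 stands inside the Naive range for Slc2a1, Vegfa, Bnip3 and Ankrd37 but not for Epas1, Pfkm or Car9, and Hif1a is level at 45.4 and 44.4 FPKM.

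The 17 members that were lower at an adjusted p under 0.05 were ordered alike across libraries. Resist replicate 4 was the lowest of the 10 libraries for all 17, as it was for 38.2% of the 629 other genes that were lower at that threshold. Naive replicate 4 was the highest for 13 of the 17 (76.5%) and for 11.3% of those other genes. No test was run on these shares, since the 17 were picked for being lower in Resist. The mean deviation of these 17 from their 10-library mean was 0.09 to 0.46 in Naive libraries, -0.24 to -0.66 in Resist replicates 1 to 4, and 0.09 in Resist replicate 5. Resist replicate 5 thus stood beside Naive replicate 3, the lowest Naive library. Without Resist replicate 5 the count of members called lower rose from 5 to 10, by Egln1, Gapdh, Ldha, P4ha2 and Pfkp. Without Naive replicate 3 it rose to 9.  Neutrophil markers summed to 75.9, 61.7, 489, 605 and 224 FPKM in Resist replicates 1 to 5 and to 1274, 457, 194, 176 and 567 FPKM in Naive replicates 1 to 5. The mean deviations of the 17 were 0.35, 0.35, 0.09, 0.46 and 0.27 in Naive replicates 1 to 5. In Resist replicates 1 to 5 they were -0.36, -0.24, -0.35, -0.66 and 0.09. The lowest neutrophil sum in Naive and the highest in Resist were both in replicate 4. Naive replicate 1, with the highest sum, had a deviation of 0.35, and Naive replicate 3, at 194 FPKM, had 0.09. The part of these cells was not tested.

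**Figure D4:**
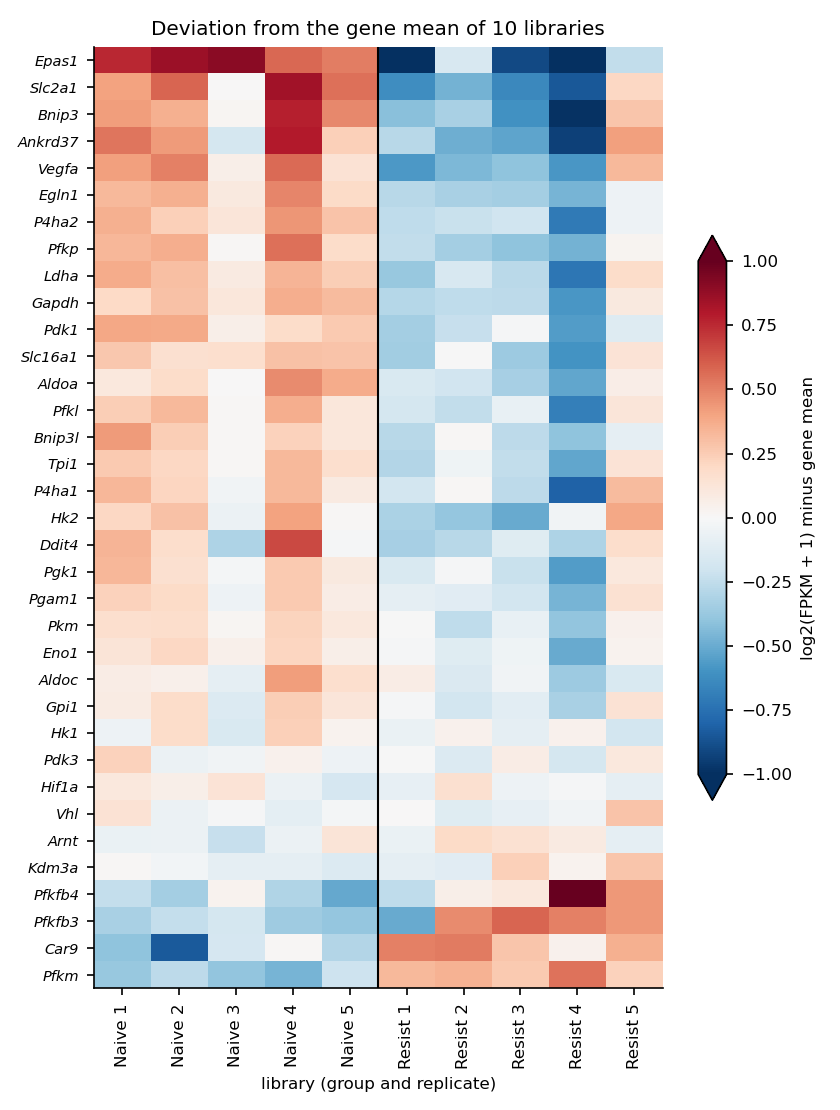
Deviation of log2(FPKM + 1) from each gene's mean over the 10 Naive and Resist libraries, with members in the order of their change and the color scale ending at ±1. The upper part is mostly red in Naive and mostly blue in Resist, with weaker and mixed colors in Naive replicate 3 and Resist replicate 5. The blue is deepest in Resist replicate 4, and Pfkfb4, Pfkfb3, Car9 and Pfkm show the opposite pattern at the bottom.

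The 8 members under the filter were Slc2a3, Ldhb, Slc16a3, Egln3, Car12, Ndrg1, Adm and Mxra7, and they have no test. Egln3, Car12, Ldhb and Mxra7, a matrix-remodeling associated gene, had means of at most 0.144 FPKM in Naive and Resist, so the heart-type lactate dehydrogenase, a hydroxylase that HIF usually induces and a second membrane carbonic anhydrase were hardly measured in these cells. Adm, the vasodilator adrenomedullin, measured 1.11, 0.07, 0.48, 0.45 and 0.79 FPKM in Naive and 0.11, 0.06, 0.18, 0.33 and 0.06 FPKM in Resist. Slc2a3, the high-affinity transporter GLUT3, measured 1.66, 0.58, 0.26, 0.35 and 1.18 FPKM in Naive and 0.19, 0.11, 0.9, 1.18 and 0.47 FPKM in Resist. Slc16a3, the lactate exporter MCT4, measured 2.26, 1.13, 0.64, 0.54 and 1.18 FPKM in Naive and 0.3, 0.25, 1.48, 1.11 and 0.75 FPKM in Resist. The last 2 and Ndrg1, a stress-induced gene, were higher in some Resist-Mac libraries, where Slc2a3 measured 5.58, 0.37, 0.15, 3.15 and 3.68, Slc16a3 11.2, 0.56, 0.36, 4.28 and 7.23 and Ndrg1 2.69, 0.12, 0.09, 0.51 and 1.62 FPKM. Mxra7 measured 2.59, 0.79, 0.94, 1.32 and 0.31 FPKM in Resist-Mac, where every library stood above the highest Naive and Resist value of 0.05 FPKM. In the same 5 libraries the neutrophil markers summed to 8791, 999, 406, 2472 and 4894 FPKM, in the same order as Slc2a3, Slc16a3 and Ndrg1 but not Mxra7, and the macrophage markers to 888, 99.1, 39.2, 219 and 481 FPKM. The part of other cells in these 4 levels was not tested.

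Other genes of the same pathways were taken from lists of related genes. Of 20 tested genes of glycolysis and pyruvate metabolism, 3 were called, all higher (15%, against 5.25% of all genes). At an adjusted p under 0.05, 5 were higher (25%, against 12.5%) and 2 lower (10%, against 6.4%). Both counts of higher genes include Slc16a7, whose call the filter favored. The median change over the 20 was -0.01. Eno3, the muscle enolase, measured 58.2, 50.2, 55.3, 60.5 and 57.6 FPKM in Naive and 90.9, 69.4, 88.8, 113 and 93.4 FPKM in Resist (log2 change of 0.67, SE 0.11, adjusted p = 0.00159). Pdk4, a pyruvate dehydrogenase kinase induced by fasting, measured 2.25, 1.89, 3.71, 3.26 and 3.31 FPKM in Naive and 8.42, 7.89, 7.19, 7.94 and 4.84 FPKM in Resist (log2 change of 1.09, SE 0.16, adjusted p = 0.00115). Slc16a7, the pyruvate transporter MCT2, measured 0.29, 0.3, 0.48, 0.48 and 0.2 FPKM in Naive and 2.04, 1.64, 2.01, 1.58 and 2.33 FPKM in Resist. It passed the filter on low values only through Resist, so its call was favored by the filter and its test is not given. For Eno3 and Pdk4 the groups did not overlap. Pdk4 and Pdk1, kinases of the same complex, moved in opposite directions. Pdk2, a further such kinase, had the highest mean level of Pdk1 to Pdk4, at 38.99 FPKM in Naive and 51.6 FPKM in Resist. It was higher under the fold threshold (log2 change of 0.39, SE 0.10, adjusted p = 0.0198). The median change over 8 tested genes of the pentose phosphate pathway was -0.12, and 1 of them, the transaldolase gene Taldo1, passed an adjusted p of 0.05 under the fold threshold (log2 change of -0.26, SE 0.06, adjusted p = 0.0122).

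Of 27 tested genes of a further hypoxia list, 6 were called lower (22.2%, against 1.11% of all genes) and 2 higher (7.41%, against 5.25%). At an adjusted p under 0.05, 10 were lower (37%, against 6.4%) and 2 higher (7.41%, against 12.5%). The median change over the 27 was -0.29. The 6 lower genes were Plod2, a collagen lysyl hydroxylase (log2 change of -1.19, SE 0.17, adjusted p = 0.00106), Hmox1, the heme oxygenase (log2 change of -0.83, SE 0.16, adjusted p = 0.00466), Ero1a, an oxidase of the endoplasmic reticulum (log2 change of -0.81, SE 0.14, adjusted p = 0.00281), Bhlhe40, a transcriptional repressor (log2 change of -0.66, SE 0.19, adjusted p = 0.0337), Higd1a, a mitochondrial protein (log2 change of -0.65, SE 0.14, adjusted p = 0.00761), and Ak4, a mitochondrial adenylate kinase (log2 change of -0.61, SE 0.13, adjusted p = 0.00761). Plod2 measured 129.7, 112, 97.4, 126 and 107 FPKM in Naive and 39.4, 49.8, 51.5, 36.3 and 79.6 FPKM in Resist, and Ero1a measured 271, 282, 231, 308 and 248 FPKM in Naive and 127, 147, 149, 128 and 226 FPKM in Resist. Neither gene's groups overlapped. The 2 higher genes were Loxl2, a lysyl oxidase-like enzyme (log2 change of 1.20, SE 0.19, adjusted p = 0.00141), and Zfp395, a zinc finger gene (log2 change of 0.97, SE 0.21, adjusted p = 0.00839). Bhlhe40 lost its call when any 1 of 7 libraries was left out, Naive replicates 2 to 5 or Resist replicates 2 to 4, at an adjusted p of 0.0528 to 0.0828. Without Resist replicate 4, Higd1a and Ak4 fell short of the fold threshold at log2 changes of -0.57 and -0.51, as did Ak4 without Naive replicate 1 at -0.56. These lists were drawn up with earlier results of these data known.

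The macrophage-depleted groups lie in tables of their own, with other labelled batches and other FPKM totals (617494 to 761510 in Resist-Mac and 882276 to 1040436 in Naive-Mac, against 519998 to 583255 in Naive and Resist). Batch, table and depletion cannot be told apart, so values are given with no test. Members with a close processed pseudogene were left out of these comparisons, since Gapdh stood at 498 ± 85.5 FPKM in Resist and 5769 ± 607 in Resist-Mac, and 28 members remained. Differences of log2(FPKM + 1) between tables rose with transcript length over all genes, with a Spearman's rho across genes of 0.67 in Resist vs. Resist-Mac and 0.75 in Naive vs. Naive-Mac. With genes in 10 classes of length, the median difference in Naive vs. Naive-Mac went from -1.11 in the shortest class to 1.81 in the longest. Neutrophil markers summed to 4881, 58.7, 6166, 3871 and 761 FPKM in Naive-Mac replicates 1 to 5, against 176 to 1274 FPKM in Naive. Macrophage markers summed to 259, 5.39, 539, 323 and 61.6 FPKM in Naive-Mac. Prostate epithelial markers summed to 190 to 297 FPKM in Naive-Mac and 318 to 505 FPKM in Naive. The part of other cells in the differences between tables was not tested.

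In Resist vs. Resist-Mac, few members stood apart. Libraries did not overlap for 2 members that were higher in Resist (7.14%, against 12.9% of the 8894 genes compared) and 1 that was lower (3.57%, against 14.7%). The median difference, Resist minus Resist-Mac, was -0.04 over the 28 members and 0.01 over all genes. With quantile normalization 1484 genes were apart in the higher and 903 in the lower direction, against 1143 and 1304 as deposited. Arnt measured 14.4, 10.97, 14.02, 15.3 and 13.9 FPKM in Resist-Mac, below every Resist library (difference 0.70 ± 0.21, SD). Kdm3a measured 14.4, 11.2, 12.4, 14.9 and 10.2 FPKM there, also below every Resist library (0.65 ± 0.28). Pdk3 was the 1 that was lower in Resist (-0.58 ± 0.26). With the length and GC correction Arnt stayed apart at 0.46, while the libraries of Kdm3a and Pdk3 overlapped at differences of 0.38 and -0.38. Pdk1 and Slc16a1 were then apart and lower in Resist, as were 889 of the 8894 genes compared.

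Of the members called in Resist vs. Naive, 7 could be compared with Resist-Mac, and the libraries of all 7 overlapped. Slc2a1 measured 136, 127, 174, 136 and 118 FPKM in Resist-Mac, within the Resist range, with a difference of -0.13 ± 0.45. Vegfa measured 25.2, 20.6, 23.3, 22.9 and 22.5 FPKM (0.34 ± 0.39) and Ankrd37 37.4, 31.5, 29.8, 13.1 and 14.3 FPKM (-0.17 ± 0.83). The Ankrd37 libraries of Resist-Mac spread from below to above the Resist range. Epas1 measured 3.89, 4.61, 7.96, 6.18 and 11.8 FPKM, with a mean of 6.896 ± 3.18 against 14.4 ± 5.24 in Resist (0.98 ± 0.73), and with the length and GC correction the difference was 0.56. Of the members higher in Resist, Pfkm measured 10.7, 9.43, 13, 11.1 and 10.9 FPKM (0.00 ± 0.20), Car9 4.67, 4.39, 6.99, 6.26 and 4.75 FPKM (0.04 ± 0.32) and Pfkfb3 7.39, 6.67, 8.85, 10.6 and 10.8 FPKM (0.54 ± 0.53). The Pfkfb3 libraries overlapped because of Resist replicate 1 and were apart without it, at a difference of 0.74.

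In Naive vs. Naive-Mac, 14 of the 28 members were apart and higher in Naive (50%, against 43.5% of the 8473 genes compared) and 1, Aldoc, was apart and lower (3.57%, against 22.2%). The 14 were Hk1, Hk2, Pfkl, Pfkp, Pfkfb3, Slc16a1, Hif1a, Epas1, Arnt, Egln1, Vegfa, P4ha1, P4ha2 and Kdm3a. The median difference was 0.51 over the members and 0.31 over all genes. Median-ratio scaling brought the all-gene median to 0.01, and 3026 genes were then apart and higher and 2721 lower, against 3682 and 1881 as deposited. The members were then 9 apart and higher and 6 lower, with a median difference of 0.18. With the length and GC correction 10 were higher (Car9 now among them) and 2, Aldoc and Pdk1, lower, with a median of 0.31. Over all 8473 genes, 3485 were then apart and higher and 997 lower, with a median of 0.31. The libraries of Egln1, Pfkp, Hif1a, Slc16a1 and Pfkl overlapped with this correction, and Pfkl turned to -0.068. As deposited and under median-ratio scaling, quantile normalization and the length and GC correction, 8 members stayed apart and higher in Naive, namely Hk1, Hk2, Pfkfb3, Epas1, Arnt, Vegfa, P4ha1 and Kdm3a, and Aldoc stayed apart and lower. How many of all genes stayed apart under all of these settings was not counted, so the 8 have no background share. In single settings, 2874 to 3682 of all genes compared were apart and higher. Shares near the background are no result about the members.

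Epas1 had the largest of these differences among the members. It measured 2.4, 4.31, 3.42, 3.72 and 4.06 FPKM in Naive-Mac, against 33.5 to 44.1 FPKM in Naive, a difference of 3.14 ± 0.30, which was 2.84 with median-ratio scaling and 2.05 with the length and GC correction. Vegfa measured 7.4, 11.7, 17.4, 13.3 and 11.4 FPKM in Naive-Mac, with a difference of 1.91 ± 0.47, or 1.59 and 1.63, in that order, under the same corrections. Arnt measured 5.3, 8.43, 10.4, 8.49 and 7.83 FPKM (1.3 ± 0.34) and Kdm3a 3.1, 6.51, 6.86, 5.29 and 6.82 FPKM (1.56 ± 0.40). As deposited, these 2 were the only members apart in both depletion comparisons, in the same direction. With the length and GC correction this held for Arnt (0.75 in Naive vs. Naive-Mac) but not for Kdm3a, and their transcripts of 4325 and 4853 bases are longer than most. Pdk1 was then apart in both comparisons as well, lower in Resist and in Naive.

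Pfkfb3 measured 1.22, 2.45, 2.6, 2.52 and 1.61 FPKM in Naive-Mac (1.63 ± 0.32), Slc2a1 124, 130.4, 216, 176 and 162 FPKM (0.61 ± 0.45) and Pfkm 3.02, 6.71, 4.69, 6.04 and 4.25 FPKM (0.36 ± 0.38). Car9 measured 1.77, 2.68, 1.27, 0.93 and 1.95 FPKM (0.62 ± 0.48). Among these 4, the libraries of Pfkfb3 were apart and those of Slc2a1, Pfkm and Car9 overlapped. Ankrd37, whose transcript of 927 bases is the shortest of the members compared, measured 51.5, 41.2, 54.5, 54.7 and 66.1 FPKM, and its difference of -0.61 ± 0.43 turned to 0.79 with the length and GC correction.

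**Figure D5:**
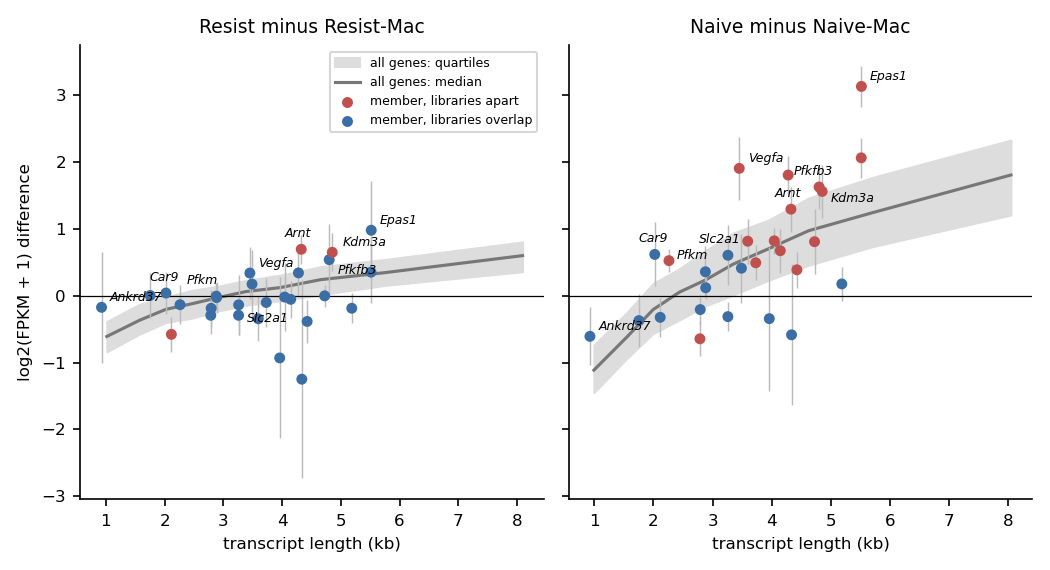
Difference of mean log2(FPKM + 1) for the 28 members without a close processed pseudogene against transcript length, with bars of ±1 SD of the difference and the all-gene median and quartiles by length in gray, and red marks members whose libraries do not overlap. Members mostly follow the gray trend in both panels, with members on both sides of it. In Naive minus Naive-Mac, Epas1 (3.14), Hk2 (2.07), Vegfa (1.91) and Hk1 (1.81) are among those above its quartiles. Aldoc (-0.64) and Pdk1 (0.18) are among those below them.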

How the data were processed

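The authors deposited FPKM, 1 value per gene and library, in 3 tables. Values for Naive and Resist were deposited as log2 of FPKM + 1, judged from the numbers (turned back to FPKM, 100% had 2 decimals within 0.0001), and were converted. Bowtie2 and mm9 stand in the submitters' processing notes, and the quantifier is not given in the sources used here. Genes carry Entrez identifiers and were named with a RefSeq table (16613 of 17485, 14053 of 14077 and 15827 of 15867). The 752 BGI_novel genes (8.45% of FPKM in that table) were removed.

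Resist vs. Naive was tested with limma 3.58.1 in R 4.3.3 (variance trend, pseudocount 1, Benjamini-Hochberg over all genes tested). The pseudocount understates changes of low genes. Lengths, GC content and processed pseudogenes came from GENCODE M21, and a pseudogene was close when minimap2 2.31 matched it with an identity of 0.9 or more across 0.8 or more of its length. Between tables, the SD combines the variances of both groups. No source says whether pools of mice were handled separately, so p-values measure only the spread between these libraries.

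Members and lists were chosen with earlier results of these data known. Named with values are members past an adjusted p of 0.05, the highest level and largest change in a role, and called related genes. Between tables, these are called members and those apart in both comparisons. Adm, Slc2a3, Slc16a3, Ndrg1, the other members and the related gene Pdk2 were named after their values were seen. Alternatives were a pseudocount of 0.1, a filter at 5 FPKM or none, median-ratio and quantile scaling, a length and GC spline with 4 degrees of freedom, no variance trend, a noise probability over 0.8, the replicate block, members with pseudogenes, and each library left out. Figures used matplotlib 3.10.9.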

Additional observations from a re-analysis of the deposited data

Results flagged for a closer look

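Among 140 sets of 5 libraries of 1 tested member in 1 group, 9 had 1 library apart from the other 4 by Dixon's criterion, and chance gives about 7. Of these, 3 concern Resist replicate 5, which was the highest Resist library for Slc2a1 (200.5 FPKM, others 96.3 to 125), for Vegfa (46.8 FPKM, others 24.5 to 27.9) and for Vhl (7.99 FPKM, others 5.79 to 6.42). Another 3 concern Resist-Mac replicate 2, the lowest of its group for Hk2 (23.7 FPKM, others 35.7 to 38.5), Pfkl (77.9 FPKM, others 106 to 109.7) and Eno1 (1389 FPKM, others 1612 to 1672). Pfkfb3 in Resist was lowest in replicate 1 (7.13 FPKM, others 14.6 to 16.2). Hif1a in Resist was highest in replicate 2 (50.2 FPKM, others 42.1 to 44.3). Ddit4 in Resist-Mac was lowest in replicate 5 (68.7 FPKM, others 98.4 to 106).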

How the results depend on the processing

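Of 664 alternative values for the 35 members tested in Resist vs. Naive, 32 were no longer called, 24 became called, 4 turned sign and the others kept both direction and side of the thresholds. The 4 are Vhl, at 0.02 as reported, with median-ratio scaling (-0.031), with quantile normalization (-0.11), without Naive replicate 4 (-0.0020) and without Resist replicate 5 (-0.048), in a range of -0.048 to 0.059 with 1 library left out. Of 245 such values for 13 other genes named in that comparison, Pdk2 and Col1a1 not among them, 19 were no longer called and the others kept direction and side. Over all genes, the 643 calls became 392 when genes had to average 5 FPKM and 344 with the noise probability, and 527 to 840 with 1 library left out. The 3 members called higher became 0 with quantile normalization in limma (where Pfkm kept an adjusted p of 0.000840 at a log2 change of 0.57, and Car9 and Pfkfb3 had 0.0611 and 0.0613), 0 with the noise probability, and 1 to 4 with 1 library left out. The 5 members called lower became 9 with median-ratio scaling (Egln1, Ldha, P4ha2 and Pfkp added) and 4 to 10 with 1 library left out. The 20 members past an adjusted p of 0.05 became 13 with no filter, where more genes were tested and the variance trend was fitted with the low genes included. They became 15 to 26 with 1 library left out. The median change over all members tested lay between -0.44 and -0.30 with 1 library left out. The replicate numbers of Naive and Resist showed no sign of pairing, since deviations of same-numbered libraries correlated at -0.16 to -0.03. Pairing by the letters in the deposited column names was not checked. The replicate block, by number, gave 624 calls over all genes. Of the members called, it ended the call of Ankrd37 (adjusted p = 0.0664), and of the other genes that of Bhlhe40 (0.0689). Between tables, the 3 members apart in Resist vs. Resist-Mac became 5 with quantile normalization, 9 with members that have pseudogenes, and 3 to 4 with 1 library left out. With pseudogenes included, 37 members were compared, and 1233 of all 10013 genes were apart and higher and 1738 lower. With quantile normalization 1484 of all 8894 genes were apart and higher and 903 lower. With 1 library left out, 1166 to 1489 of all genes were apart and higher and 1366 to 1500 lower. The median difference of -0.04 over the 28 members turned to 0.13 with quantile normalization and ranged from -0.14 to 0.000218 with 1 library left out. The 15 members apart in Naive vs. Naive-Mac became 23 with members that have pseudogenes, and 15 to 17 with 1 library left out, where the median difference was 0.47 to 0.56. That median, 0.51 as deposited, was 0.18 with median-ratio scaling (9 higher and 6 lower), 0.72 with quantile normalization (16 and 3), 0.31 with the length and GC correction (10 and 2) and 0.18 with members that have pseudogenes. With pseudogenes included, 37 members were compared, and 3958 of all 9586 genes were apart and higher and 2402 lower. With quantile normalization 2874 of all 8473 genes were apart and higher and 2791 lower. With 1 library left out, 3694 to 3961 of all genes were apart and higher and 1917 to 2137 lower. Member counts near these backgrounds are no result about the members. Pfkl in Naive vs. Naive-Mac turned from 0.49 to -0.068 with the length and GC correction. The cause of these changes was not tested. Without read counts, the precision of single values is unknown.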
